A study of Mus musculus with 4 samples.

Results

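The replication-dependent histone genes were examined as a gene family: 67 of the 21627 mouse protein-coding genes on chromosomes that carried peaks. Members were all RefSeq protein-coding genes of the mm10 assembly whose symbol starts with H2ac, H2bc, H3c or H4c or is H1f1 to H1f5, and those with an older name that starts with Hist1, Hist2, Hist3 or Hist4. The current symbol matched 62 of them, and 5 (H2bu2, H2aw, H4bc24, H1f6 and H4f16) were matched by the older name only. By older name, 54 members belong to the Hist1 cluster on chromosome 13, 10 to Hist2 on chromosome 3, 2 to Hist3 on chromosome 11 and 1 to Hist4 on chromosome 6. By protein, 6 encode linker histone H1, 18 encode H2A, 18 encode H2B, 12 encode H3 and 13 encode H4. H4bc24 was counted as H2B, the type that its older name gives.

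The study mapped chromatin binding by CUT&RUN, in which an antibody directs a nuclease to the sites of its target protein, in epithelial cells of the thymus. The groups were mTEClo and mTEChi, the usual names of medullary thymic epithelial cells with low and high surface MHC class II. Each group had 2 libraries of 500000 cells, all with a wild-type Trp53 genotype and, per the labels, from mice of 4 to 5 weeks. The titles of the samples speak of anti-P53, whereas the protocol speaks of anti-BAF155, which binds a subunit of a chromatin remodelling complex, so the labels do not settle the target of the antibody. The labels do not say whether the replicates came from separate mice or from pooled animals, and peak lists hold no expression with which to check the sorted cell type. No control-antibody library was analysed here.

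Replication-dependent histone genes supply the core and linker histones that package new DNA in S phase. They are short, lack introns, stand in clusters, and yield mRNAs that end in a stem-loop instead of a poly(A) tail. Many H2A and H2B genes stand head to head and share the DNA between their start sites as a promoter. Transcription of the clusters is organised around the protein NPAT in nuclear bodies called histone locus bodies. TATA and CCAAT boxes occur in many of these promoters, the octamer ATTTGCAT in H2B promoters, the letters AAACACA in H1 promoters, and the letters GGTCCG at the core of an H4 promoter element.

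The stretches upstream of 8 members are shown because the results below turn on where summits fell in them. They are RefSeq sequence of GRCm38.p6 (mm10), written 5′ to 3′ on the strand of the gene, and end at the base before the annotated start site. Each has 200 bases except that of H2bc12, which stops before the start site of its divergent partner H2ac12. Capitals mark, on either strand, the TATA box (TATAAA), the CCAAT box, the octamer (ATTTGCAT), the H1 letters (AAACACA) and the H4 letters (GGTCCG), so ATTGG is a CCAAT box read on the other strand. H2ac6, H2bc12, H4c4 and H1f3 had a summit within 1 kb in all 4 libraries, H3c2 in the mTEChi libraries alone, and H2ac21, H4c17 and H1f5 had no summit within 5 kb in any library.
H2ac6 (chr13:23683960-23684159, minus strand): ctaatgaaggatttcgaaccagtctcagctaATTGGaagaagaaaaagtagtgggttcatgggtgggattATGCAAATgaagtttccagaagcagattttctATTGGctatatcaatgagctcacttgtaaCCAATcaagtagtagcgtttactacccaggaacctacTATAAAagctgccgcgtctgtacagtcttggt
H2bc12 (chr13:22035644-22035820, plus strand): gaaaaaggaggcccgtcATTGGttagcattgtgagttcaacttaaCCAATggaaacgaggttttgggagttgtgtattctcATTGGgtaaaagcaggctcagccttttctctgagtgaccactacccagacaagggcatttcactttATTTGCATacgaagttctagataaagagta
H4c4 (chr13:23581368-23581567, plus strand): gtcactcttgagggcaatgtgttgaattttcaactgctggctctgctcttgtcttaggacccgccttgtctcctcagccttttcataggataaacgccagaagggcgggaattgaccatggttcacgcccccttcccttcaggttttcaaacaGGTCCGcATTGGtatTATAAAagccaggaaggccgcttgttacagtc
H1f3 (chr13:23554832-23555031, plus strand): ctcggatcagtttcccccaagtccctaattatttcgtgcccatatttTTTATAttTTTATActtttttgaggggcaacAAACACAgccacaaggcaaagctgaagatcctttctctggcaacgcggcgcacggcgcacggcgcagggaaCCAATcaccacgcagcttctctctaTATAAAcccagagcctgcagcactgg
H3c2 (chr13:23752145-23752344, plus strand): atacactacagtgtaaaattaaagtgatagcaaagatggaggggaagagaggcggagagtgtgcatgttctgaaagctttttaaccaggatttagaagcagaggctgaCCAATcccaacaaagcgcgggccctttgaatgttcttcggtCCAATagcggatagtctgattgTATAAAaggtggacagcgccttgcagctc
H2ac21 (chr3:96219685-96219884, plus strand): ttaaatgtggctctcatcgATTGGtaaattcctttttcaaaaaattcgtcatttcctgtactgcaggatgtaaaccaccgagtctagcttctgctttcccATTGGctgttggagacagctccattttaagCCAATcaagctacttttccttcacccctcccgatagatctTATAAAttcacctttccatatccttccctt
H4c17 (chr13:21811546-21811745, plus strand): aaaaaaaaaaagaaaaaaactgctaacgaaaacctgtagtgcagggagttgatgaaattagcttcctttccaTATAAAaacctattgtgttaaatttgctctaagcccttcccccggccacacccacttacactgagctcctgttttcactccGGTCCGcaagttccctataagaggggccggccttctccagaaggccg
H1f5 (chr13:21780626-21780825, minus strand): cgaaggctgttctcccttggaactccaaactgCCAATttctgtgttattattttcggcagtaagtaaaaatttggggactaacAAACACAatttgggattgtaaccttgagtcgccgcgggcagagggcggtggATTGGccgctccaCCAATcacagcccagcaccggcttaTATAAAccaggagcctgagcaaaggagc

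The lists held 89809 and 69359 peaks for mTEClo replicates 1 and 2 and 73510 and 85308 for mTEChi replicates 1 and 2, each given as a summit with 150 bp on each side and a score. The score was taken as −log10 of p or q from the authors' peak caller, and it ranks peaks only within its own list. A call of a member in 1 library means that at least 1 summit of that library lay no more than 1 kb from either end of the gene, and calls were also made at 5 kb. Read counts are not part of peak lists, so the depth behind a call is unknown. Values of a member are given in the order mTEClo replicate 1, mTEClo replicate 2, mTEChi replicate 1 and mTEChi replicate 2.

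The histone genes were called in all 4 libraries more often than protein-coding genes at large. Within 1 kb, 28 of 67 members (41.8%) were called in all 4 libraries, against 17.1% of all protein-coding genes. This was so although the members are short, with a median length of 492 bp against 17330 bp, and had a median 1-kb window of 2492 bp against 4002 bp. In single libraries, 34 members (50.7%) were called in mTEClo replicate 1, against 47.3% of all genes. The counts were 29 (43.3% against 35.7%) in mTEClo replicate 2, 37 (55.2% against 37.4%) in mTEChi replicate 1 and 36 (53.7% against 37.4%) in mTEChi replicate 2. The member share was thus above that of all genes in each of the 4 libraries, least so in mTEClo replicate 1.

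Members without a peak were also common. Within 1 kb, 24 members (35.8%) were called in no library, against 34% of all genes, which is close to the background. Within 5 kb, 20 members (29.9%) were called in no library, against 14.5% of all genes. The family therefore held many genes called throughout, many genes called nowhere, and 15 in between at 1 kb.

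Most of the 28 calls in all 4 libraries did not rest on peaks near the score limit. H4f16 was an exception, as its best peak in mTEClo replicate 1 scored 3.31, above 22.2% of the list. When each list was cut to its 10000 highest-scoring peaks, 21 members (31.3%) were still called within 1 kb in all 4 libraries, against 5.9% of all genes. The density of summits gave the same order. In the merged 1-kb windows of the members, which cover 135.965 kb, there were 34, 23, 32 and 29 summits, or 2.50, 1.69, 2.35 and 2.13 per 10 kb. The merged windows of all protein-coding genes held 1.46, 1.01, 1.08 and 1.08 summits per 10 kb.

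Calls of neighbouring members are not independent, because 1 peak can lie within 1 kb of several genes. Members whose windows overlap formed 36 units, and 18 of these were called in all 4 libraries. A unit can be wider than the window of 1 gene. Units of all protein-coding genes were not counted, so the share of all genes is no background for this count. Peaks of the 4 lists that share at least 1 bp were merged into regions. Of 46 regions with a summit within 1 kb of a member, 19 (41.3%) held a peak of all 4 libraries, and 8 of these served 2 members at once. Of 62 regions within 5 kb, 20 (32.3%) held a peak of all 4 libraries, and 28 were seen in 1 library only. Of the 259773 regions of the lists as a whole, 1.99% held a peak of all 4 libraries. The whole lists are not limited to gene ends, and the share near the ends of other genes was not counted. In the 20 shared regions the summits of the 4 libraries lay within a median of 65.5 bp of each other, from 14 bp at the H2ac11 and H2bc11 pair to 281 bp at H1f2.

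The shared regions ranked high within each list. A median of 97.4%, 97.5%, 99.2% and 98.9% of the peaks of a list had a lower score than the region's peak. Regions shared by all 4 libraries anywhere in the genome had medians of 93.1%, 86.7%, 93.7% and 91.7%. The top 1% of the list held 6, 4, 11 and 9 of the 20 histone regions. It held 14.5%, 11.2%, 12.9% and 14.8% of the regions shared by all 4 libraries anywhere in the genome.

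**Figure D1:**
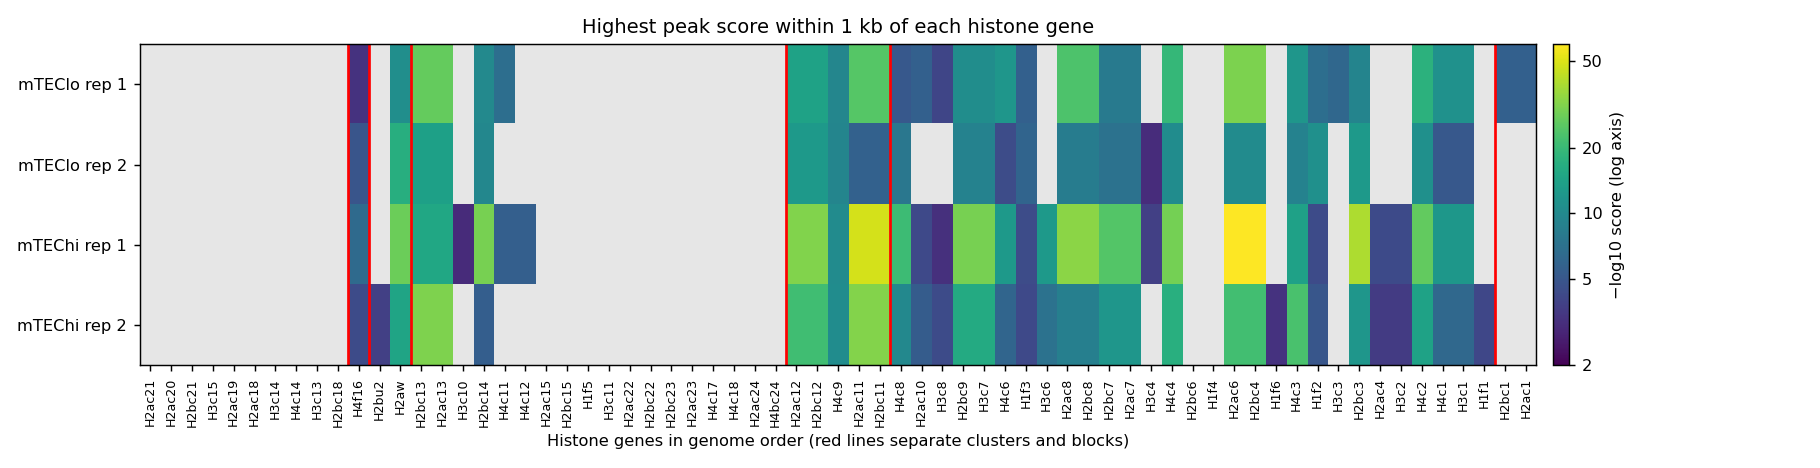
Highest score (−log10, colour on a log scale) of a peak within 1 kb of each of the 67 members (columns, genome order, with red lines between clusters or blocks) in each library (rows); grey means no peak. The 28 filled columns are not spread evenly: the first 10 columns, the chromosome 3 cluster, are grey in every library, and so is a run of 12 members of chromosome 13.

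The members called throughout were led by H2A and H2B genes that face each other. The highest score of any member in mTEClo replicate 1 and in mTEChi replicate 1 belonged to the peak shared by H2ac6 and H2bc4. H2ac6 had scores of 30.8, 10.3, 59.9 and 21.5, above 99.9%, 98.3%, 99.9% and 99.7% of the list. The summits lay 124, 147, 101 and 81 bp upstream of the H2ac6 start site, inside the stretch printed above. That stretch holds an octamer, 3 CCAAT boxes counting both strands, and a TATA box next to the start.

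H2ac12 and H2bc12 shared a peak with scores of 14.2, 12.4, 31.4 and 21.2. Its summits lay 95, 133, 131 and 68 bp from the H2ac12 start site, within the 178 bp that separate the start sites of the pair. The peak shared by H2ac11 and H2bc11 scored 24.6, 5.74, 48.4 and 31.8, and was the highest of any member in mTEChi replicate 2. The 4 summits of this peak covered the same few bases, 148, 154, 140 and 141 bp from the H2ac11 start site. H2bc13 and H2ac13, at the start of the cluster, shared a peak scored 26.7, 13.8, 15.1 and 31.3. Of its summits, 3 lay between the start sites of that pair, and that of mTEClo replicate 2 lay 5 bp inside H2bc13. H2ac8 and H2bc8 shared a peak with scores of 23.2, 8.37, 33.0 and 8.65, and H2bc7 with H2ac7 one with scores of 7.99, 7.18, 24.2 and 11.96.

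The promoter table gives both start sites for 10 head-to-head pairs of H2A and H2B genes. A summit lay between the start sites, or within 100 bp of them, in all 4 libraries at 5 pairs (those of H2ac13, H2ac12, H2ac11, H2ac8 and H2ac7). At the other 5 pairs it did so in no library: these were H2ac15 with H2bc15, H2ac22 with H2bc22, H2bc23 with H2ac23, H2ac24 with H4bc24, and H2bc1 with H2ac1. No pair was intermediate, and 4 of the 5 pairs without a summit lie in 1 stretch of chromosome 13. H2ac6 and H2bc4 are not in this count because H2bc4 has no entry in the promoter table.

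H2A and H2B genes outside these pairs of protein-coding genes were also called. Those named next each have a histone pseudogene close by: H2bu1-ps at H2aw, H2ac5-ps at H2bc3 and H2ac14 at H2bc14. Their best summits lay between the gene and the pseudogene in all 4 libraries. H2aw, the H2A gene of the chromosome 11 cluster, had scores of 10.7, 16.9, 27.8 and 14.6, and the value in mTEClo replicate 2 was the highest of any member there. H2bc3 had scores of 9.28, 12.4, 39.4 and 11.999, and H2bc14 had scores of 9.94, 9.65, 29.9 and 5.56. These peaks lay just upstream of the start sites, with the middle of the 4 summits at −78.5 bp from the start site at H2aw, −96 bp at H2bc3 and −40 bp at H2bc14.

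H4 was the type with the highest share of members called within 1 kb in all 4 libraries, 8 of 13. H2B had the most by number, 9 of 18. The share of all genes called so was 17.1%. H4c4 had scores of 19.2, 10.4, 29.5 and 17.2, with summits between 53 bp upstream and 2 bp downstream of the start site, close to the H4 letters, the CCAAT box and the TATA box that stand together in its printed stretch. H4c2 had scores of 17.9, 10.99, 26.6 and 14.1. H4c3 had scores of 12.01, 9.003, 13.95 and 22.5. The other called H4 genes scored between 3.31 and 20.5, namely H4c8, H4c9, H4c6, H4c1 and H4f16. H4f16, alone on chromosome 6, had scores of 3.31, 4.93, 6.46 and 4.34, with the mTEChi replicate 2 summit 611 bp downstream of the start site and the other 3 within 56 bp of it.

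H3 genes were called throughout in 2 of 12 cases, close to the 17.1% of all genes. These were H3c7 and H3c1, and each of them shared its peak with another member. H3c7 and H2bc9 shared a region with scores of 5.12, 9.003, 30.01 and 15.95. A further region nearer the H2bc9 start site held peaks of mTEClo replicate 1 (10.6), mTEChi replicate 1 (10.9) and mTEChi replicate 2 (9.20). H3c1 and H4c1 shared a region with scores of 11.2, 5.10, 12.1 and 6.28. Most H3 genes were within 5 kb of a called neighbour, so 7 of 12 were called in all 4 libraries at that distance. The share of all genes at 5 kb was 36%. Among members with any summit within 5 kb, the calls within 1 kb in all 4 libraries were 2 of 5 for H1, 7 of 11 for H2A, 9 of 13 for H2B, 2 of 8 for H3 and 8 of 10 for H4. By these counts H3 also had the lowest share of the types among members with a peak nearby. That subset was picked from the same peak lists as the calls, so it is not separate support. Of all 21627 genes, 3697 were called within 1 kb in all 4 libraries and 3141 had no summit within 5 kb. Among genes with a summit within 5 kb, the H3 share was thus low beside the other types but not below that of all genes. The difference between types was not tested.

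Of the H1 genes, H1f3 and H1f2 were called in all 4 libraries. Their best peaks lay elsewhere than those of most core histone genes. H1f2 had scores of 6.79, 10.99, 4.33 and 4.95, with the summits 913, 980, 727 and 1008 bp downstream of the start site, past the end of this 725-bp gene. H1f3 had scores of 5.66, 6.004, 4.40 and 4.26, with the best summit 1212, 1256 and 1179 bp downstream in the first 3 libraries and 5 bp downstream in mTEChi replicate 2. A region near the H1f3 start site was shared by all 4 libraries, with scores of 4.10, 3.31, 3.93 and 4.26; in mTEChi replicate 2 this was the only H1f3 summit within 1 kb. A region 71 bp downstream of the H1f2 start site held peaks of the mTEClo libraries alone, with scores of 5.12 and 2.23. H1f1 and the testis gene H1f6 were each called within 1 kb in mTEChi replicate 2 only, at 4.12 and 3.29.

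**Figure D2:**
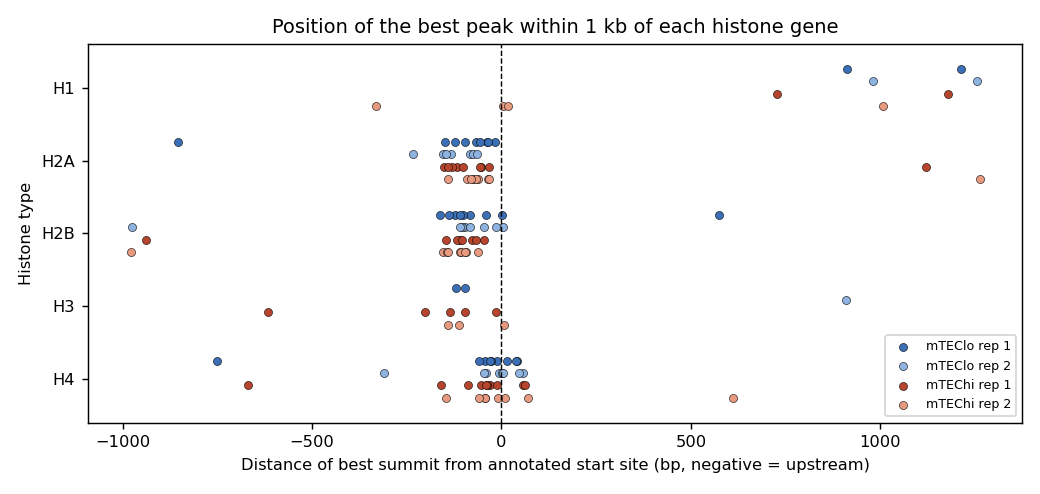
Distance in bp from the annotated start site (dashed line, negative is upstream) to the best summit within 1 kb of a member, by histone type (rows) and library (colours); each point is 1 member in 1 library. Most H2A, H2B and H4 points gather at the start site, with medians over all types of −58, −55.5, −83 and −68 bp. The H1f2 points and 3 of 4 H1f3 points lie 727 to 1256 bp downstream. Some points of other types are as far off, such as H2bc9 at −976, −938 and −979 bp and H2ac4 at 1120 and 1263 bp.

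Over all members with a start site, the best summit within 1 kb lay no more than 250 bp from it in 26 of 31 cases in mTEClo replicate 1, 21 of 26 in mTEClo replicate 2, 28 of 34 in mTEChi replicate 1 and 28 of 33 in mTEChi replicate 2. The median offsets were −58, −55.5, −83 and −68 bp, all upstream. For the 25 members with a start site and calls in all 4 libraries, 88 of 100 best summits were within 250 bp of the start, 78 were upstream of it and 14 lay inside the gene.

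H2bc6 shows what the distance rule can miss. Its RefSeq interval is 37455 bp long, with a start site at each of 2 promoter entries, and no summit was within 1 kb of either end. A region with a peak of all 4 libraries (chr13:23585838-23586197) nevertheless stood at its inner start site, with its middle summit position at −47.5 bp and scores of 12.7, 8.50, 12.4 and 3.97. By the rule used for all genes, H2bc6 remained among the members not called at 1 kb.

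Calls were also uneven along the genome. Members less than 100 kb apart were joined into blocks. On chromosome 13 these were block 1, with 18 members over 121.82 kb (H2bc13 to H4bc24, chr13:21715711-21837530), block 2, with 5 over 8.537 kb (H2ac12 to H2bc11, chr13:22035122-22043658), block 3, with 29 over 233.369 kb (H4c8 to H1f1, chr13:23531044-23764412), and block 4, with the testis genes H2bc1 and H2ac1. All 5 members of block 2 were called within 1 kb in all 4 libraries, and 18 of 29 in block 3. The share of all genes was 17.1%. In block 1, 3 of 18 were called so, close to the share of all genes, and all within its first 7 kb. Neither gene of block 4 was called so, each having a summit in mTEClo replicate 1 alone (5.66).

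**Figure D3:**
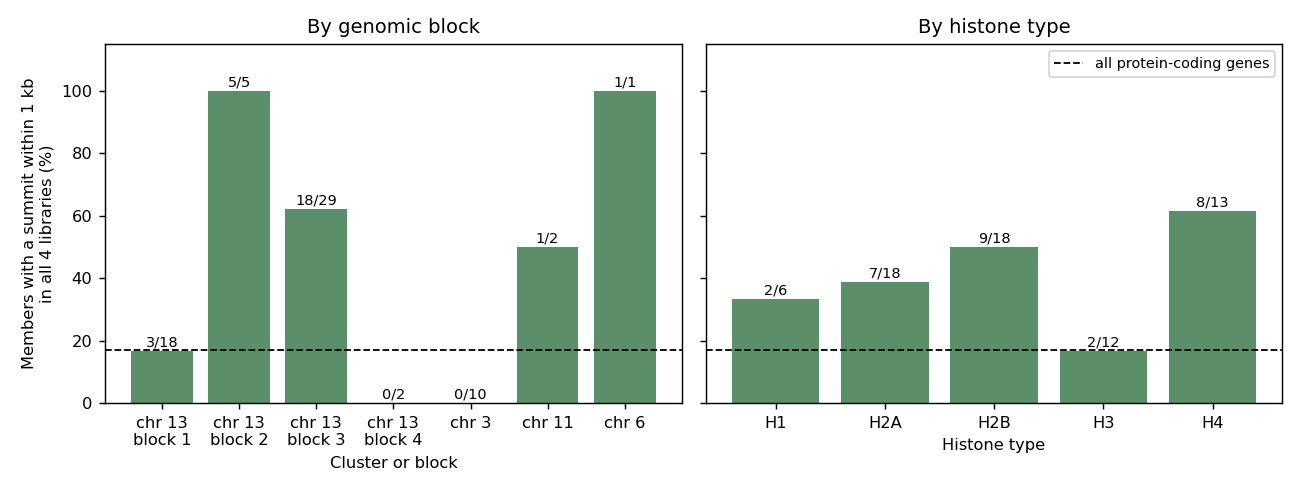
Share of members (%) with a summit within 1 kb in all 4 libraries, by block (left) and by histone type (right), with counts above the bars; the dashed line is the share of all protein-coding genes, 17.1%. Blocks range from 0 of 10 on chromosome 3 to 5 of 5 in block 2 of chromosome 13, and types from 2 of 12 (H3) to 8 of 13 (H4).

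None of the 10 members on chromosome 3 (H2ac21 to H2bc18, chr3:96219885-96270192) was called in any library at 1 kb or 5 kb. They are H2ac21, H2ac20, H2bc21, H3c15, H2ac19, H2ac18, H3c14, H4c14, H3c13 and H2bc18, and so include genes of all core histone types. Of all genes, 34% were called in no library at 1 kb and 14.5% at 5 kb. No list held a summit between chr3:96194916 and chr3:96290469, a gap of 95.553 kb. A second gap of 102.143 kb ran from chr13:21750584 to chr13:21852727 through block 1 of chromosome 13 and held 12 members. It contained H1f5 and H3c11, the H2A and H2B pairs from H2ac15 to H4bc24, and the H4 genes H4c17 and H4c18. H2ac15 and H2bc15 were the members in this gap with a summit within 5 kb, at its edge, in mTEChi replicate 1 (5.59).

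Gaps of this length were uncommon in the lists. The median distance between neighbouring summits over the 4 lists together was 3.748 kb. Of 317635 such distances, 0.299% were longer than the gap on chromosome 13 and 0.341% longer than that on chromosome 3. In single libraries the gap on chromosome 3 measured 215, 100.2, 98.5 and 106 kb, and that on chromosome 13 measured 209, 123, 102 and 123 kb. A gap over the lists together is present in each single list by construction. Both gaps were longest in mTEClo replicate 1, the longest list. The shares of longer distances hold for the lists together, and those of single lists are not given here.

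**Figure D4:**
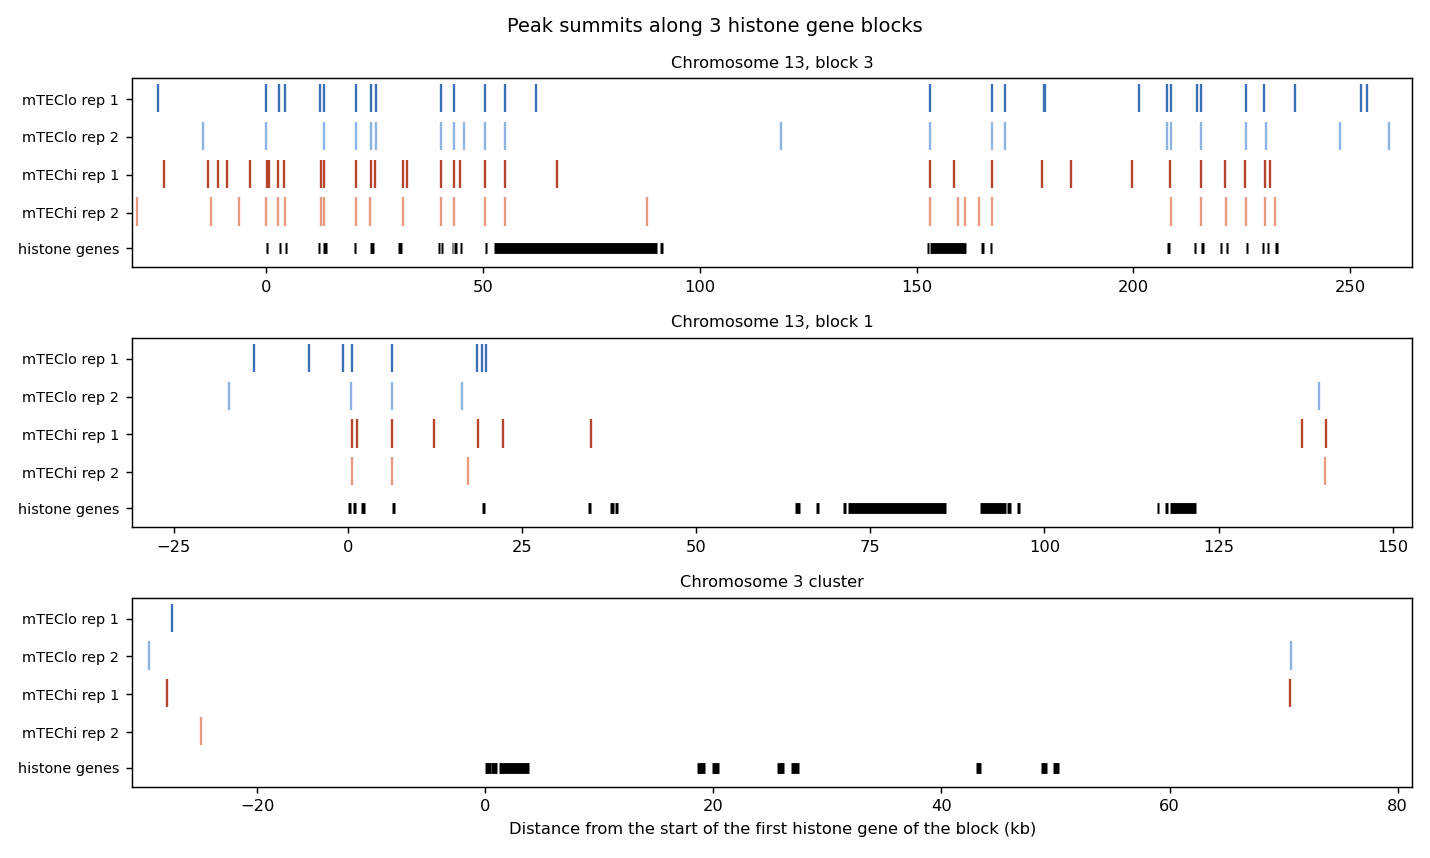
Summits of each library (coloured ticks) and member genes (black bars) along blocks 3 and 1 of chromosome 13 and the chromosome 3 cluster, as distance in kb from the start of the first histone gene. Summits line up over the 4 libraries at many genes of block 3, stop after the first part of block 1, and are absent among the 10 genes of chromosome 3.

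Many members without peaks had start sites in repeated sequence. Promoter entries of 300 bases, from 250 before to 50 after the start site, were found for 62 of 67 members (63 entries, since H2bc6 has 2). The members without an entry were H2bc21, H4c14, H3c7, H2bc4 and H3c1. In each promoter the share of 31-base words that also occur at another position of the promoter table, on either strand, was counted. Among 18 promoters of members with no summit within 5 kb, 10 had at least 50% of their words repeated. This held for 0 of 25 promoters of members called in all 4 libraries, for 0 of 20 others, and for 980 of 21011 promoters (4.66%) overall.

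The repeated promoters came in matching sets. Those of H2bc23 and H4bc24 were 100% repeated, those of H4c17 and H4c18 94.4%, those of H3c15 and H3c14 83.0%, and those of H2ac19 and H2ac18 70%. H2ac23 stood at 91.5% and H2ac24 at 75.2%. The other 8 promoters without a summit within 5 kb, those of H1f5, H3c11, H2ac21, H2ac20, H2ac22, H2bc22, H3c13 and H2bc18, had 0% repeated. How reads that align to several places were treated is not given in the sources used here, and the part of repeated sequence in the missing calls was not tested.

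**Figure D5:**
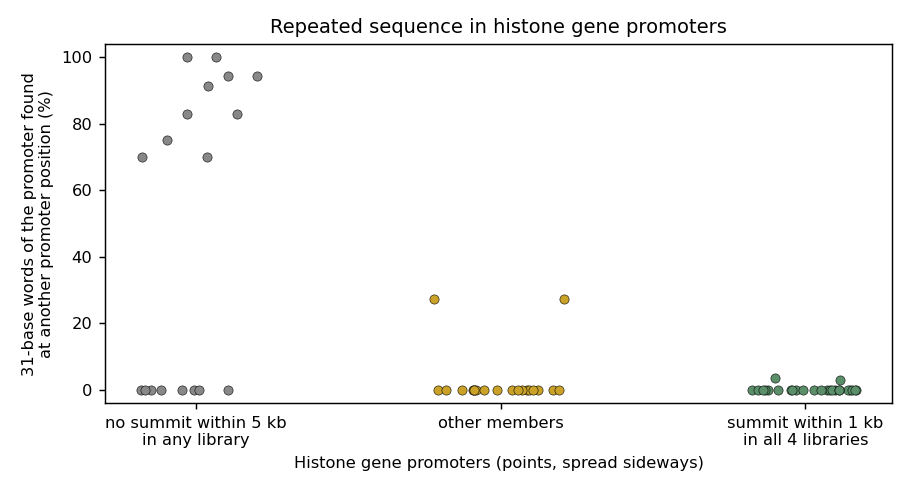
Share (%) of the 31-base words of a member's promoter that occur at another promoter position, for 18 promoters of members with no summit within 5 kb, 25 of members called within 1 kb in all 4 libraries and 20 of other members; points are spread sideways only for visibility. The first set splits into 8 promoters at 0% and 10 between 70% and 100%, while no promoter of the other sets reaches 50%.

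Promoter letters set the histone types apart. A match to letters is a description of the sequence. TATAAA occurred on either strand in 55.6% of the 63 member promoters, against 12.7% of 21011 promoters. CCAAT occurred in 85.7% against 38.5%, in all promoters of H1, H2A, H2B and H3 genes with an entry and in 3 of 12 H4 promoters. The octamer ATTTGCAT occurred in 22.2% against 1.68%, in 7 of 18 H2A and 7 of 17 H2B promoters, which partly overlap each other in divergent pairs.

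AAACACA occurred in 14.3% of member promoters against 6.19%, and in 5 of 6 H1 promoters. GGTCCG occurred in 20.6% against 10.6%, and in 11 of 12 H4 promoters. TTTCGCGC, a letter string of the E2F type, occurred in 14.3% against 0.457%, in 5 H2A and 4 H2B promoters, and TTTGGCGC, another such string, in none of the 63 against 0.643%. The GC box GGGCGG was found in 38.1% of member promoters against 46.6%. The consensus decamer of p53, searched by name on both strands, occurred in 5 of 63 member promoters (7.94%), against 7.37% of all promoters, which is close to the background. It was found in 1 of the 25 promoters of members called in all 4 libraries. The octamer was in 8 of those 25 and in 2 of 18 promoters without a summit within 5 kb, CCAAT in 20 of 25 and 16 of 18, and TATAAA in 13 of 25 and 9 of 18.

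Between the 2 states, most calls of histone genes were shared. Both mTEClo libraries called 28 members (41.8%) within 1 kb, against 27.2% of all genes, and both mTEChi libraries called 33 (49.3%), against 25.5%. Every member called in both mTEClo libraries was also called in both mTEChi libraries. The share of members called was 47.0% ± 5.28 in mTEClo and 54.5% ± 1.06 in mTEChi (SD, n = 2), and the values of the 2 states did not overlap. For all protein-coding genes the shares were 41.5% ± 8.22 and 37.4% ± 0.0262, and the mTEChi values lay between those of the mTEClo libraries. With 2 libraries against 2, an exact permutation test cannot give a two-sided p below 0.333, and none was made.

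At 5 kb the libraries called 41, 41, 46 and 44 members, with a share of 61.2% ± 0 in mTEClo and 67.2% ± 2.11 in mTEChi (SD, n = 2). Both mTEClo libraries called 41 (61.2%, against 51.3% of all genes), both mTEChi libraries 43 (64.2% against 48.1%), and all 4 libraries 41 (61.2% against 36%). The single libraries of the members were not above the background throughout at this distance: all genes were called in 69.2%, 59.7%, 59.7% and 64.1% of cases, so the member share was lower in mTEClo replicate 1 and higher in the other 3 libraries.

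No member belonged, at 1 kb, to the class called by both mTEClo libraries but by no mTEChi library, against 4.08% of all genes. The reverse class, both mTEChi libraries and no mTEClo library, held 3 members (4.48%), H3c6, H2ac4 and H3c2, against 1.94% of all genes. H3c6 had no peak in either mTEClo library and scores of 12.4 and 7.23 in the mTEChi libraries, above 96.6% and 95.9% of the list, with summits 97 and 112 bp upstream of the start site. H2ac4 and H3c2 shared a weaker peak, 4.31 and 3.63, above 66.6% and 51.7% of the list. Its summits lay 137 bp upstream and 6 bp downstream of the H3c2 start site. Within 5 kb of a member, 3 regions held peaks of both mTEClo libraries alone and 2 held peaks of both mTEChi libraries alone. By member at 5 kb, the mTEClo class held 0 (against 3.53% of all genes) and the mTEChi class 2. The 3 regions lie near H2bc11, near H4c3 and at the H1f2 start site. The members near them also had peaks of mTEChi elsewhere in their windows. Of the 3 regions, only that at the H1f2 start site had a summit within 1 kb of a member. The 2 regions of mTEChi, those of H3c6 and of H3c2 with H2ac4, both did. The share of such regions in the lists as a whole was not counted. At 5 kb the class of members called in mTEChi alone held H3c6 and H2bu2, 2.99% of members against 2.23% of all genes. The H2bu2 peaks of mTEChi replicates 1 and 2 lay at different sites, 3569 and 94 bp upstream of its start site. They scored 3.62 and 3.83, so no H2bu2 region was shared by both mTEChi libraries.

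These state-specific counts depended on single libraries. Without mTEClo replicate 1 the class called in mTEChi alone grew from 3 to 5 members, without mTEChi replicate 1 to 6 and without mTEChi replicate 2 to 5. Without mTEClo replicate 2, the class called in mTEClo alone went from 0 to 3 members, H3c3, H2bc1 and H2ac1. A class needs fewer libraries when 1 is left out, so by construction it can only stay or grow. With the 10000 highest-scoring peaks, 1 member was in the mTEChi class. Shares of all genes for these counts are not given here.

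The genes that make and process histone mRNA were called often, and were read as a list of 24. Of these, 13 (54.2%) were called within 1 kb in all 4 libraries and 2 in no library, against 17.1% and 34% of all genes. Npat, the organiser of the histone locus body, had scores of 14.2, 10.3, 11.3 and 13.6. Casp8ap2, which encodes the histone locus body protein FLASH, had scores of 15.7, 10.3, 32.2 and 20.9. Slbp, whose protein binds the stem-loop of histone mRNA, scored 8.002, 4.93, 12.1 and 6.18, and Lsm10, a subunit of the U7 particle that helps to cut that mRNA, 8.20, 3.48, 7.85 and 3.34. Cstf2, a cleavage factor subunit, had no summit within 5 kb in any library.

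Of 22 histone chaperone genes, 11 (50%) were called within 1 kb in all 4 libraries, against 17.1% of all genes. Asf1b, a carrier of new H3 and H4, had scores of 20.6, 10.99, 23.6 and 21.6, and Daxx, a chaperone of the variant H3.3, 37.0, 15.1, 42.2 and 33.4. Chaf1a and Hat1 were called throughout as well, and Hjurp had no summit within 5 kb. Of 11 genes for replacement variants, which are not members of the family, 3 (27.3%, with the same background of 17.1%) were called in all 4 libraries. These were H2az2, H1f0 and H2aj. H2aj stands near H4f16 on chromosome 6. H2ax had no summit within 5 kb.

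Of the 50 other protein-coding genes that lie among the chromosome 13 members, 2 (4%) were called within 1 kb in all 4 libraries, Zfp322a and Btn2a2, against 17.1% of all genes. No library called 38 of the 50 within 1 kb, a share well above the 34% of all genes. Within 5 kb, 24 of the 50 had no summit, also a share well above the 14.5% of all genes. One gene family made up most of these neighbours: 36 are Vmn1r pheromone receptor genes such as Vmn1r188, Vmn1r189 and Vmn1r191, with 0 called in all 4 libraries and 33 in none within 1 kb. Among the 14 other neighbours, 2 (14.3%) were called in all 4 libraries, close to the background, and 5 in none. No other protein-coding gene lies between the members on chromosome 3 or on chromosome 11.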

How the data were processed

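Peaks were analysed for 4 CUT&RUN libraries, 2 of mTEClo and 2 of mTEChi, grouped by the sample titles. Per the submitters' processing notes, the tools were Bowtie2 2.2.9, MACS2 2.2.7.1, SAMtools 1.9 and Picard, on mm10. Settings and any peak-calling control are unstated there. The deposited lists hold 1 interval of 301 bp per peak, called by the authors for each library alone, and a score taken here as −log10 of p or q, with a minimum of 2.00 (a limit of 0.01). Coordinates count from 1. The gene table was RefSeq GRCm38.p6 without strand, and start sites came from the matching promoter table. Counts, distances and shares were computed with Python 3.11.15, numpy 2.4.6 and pandas 2.3.3, and the calling step was tested on simulated data. No test was made over members. The members and gene lists were chosen with earlier results of these data known. Named were the members called in all 4 libraries that ranked highest, those of 1 state, those without peaks, and the leaders by cluster, type and library. H4c8, H4c9, H4c6, H2bc3, H2bc14, H2bc7, H1f1, H1f2, H1f6, H2bc6, H2bu2 and the remaining genes named were chosen after their values were seen. Alternatives were a 250-bp and a 3-kb window, higher score limits, the 10000 highest peaks, equal list lengths, merged windows, summit distance and leaving out each library.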

Additional observations from a re-analysis of the deposited data

How the results depend on the processing

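Of 68 alternative values, 59 stayed within 1.5 times the reported count. Merged windows count a group of neighbours once, and gave 36 units at 1 kb and 15 at 5 kb. Within 1 kb, 18 units were called in both mTEClo libraries, 21 in both mTEChi libraries and 18 in all 4. Within 5 kb, 9 were called in all 4. No such count over all genes was made. With the 10000 highest-scoring peaks, 1 member was called in mTEChi only. Leaving out each library in turn gave 3 to 6 members called in mTEChi only and 0 to 3 in mTEClo only, with fewer libraries needed for a call by construction. The same omissions gave 28 to 34 members in both mTEClo libraries, 33 to 37 in both mTEChi libraries and 28 to 30 in all 4. The results are counts, no test was made on them, and no replicate block was fitted. The lists give no read counts, so a missing peak and a low depth cannot be told apart. Scores are not levels and were not compared between libraries.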

Other observations

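The histone pseudogenes of the clusters were not among the members. H2bu1-ps (chromosome 11), H2ac14 and H2ac5-ps (chromosome 13) each had a summit within 1 kb in all 4 libraries. These are the peaks of their neighbours H2aw, H2bc14 and H2bc3, with the same scores: 10.7, 16.9, 27.8 and 14.6 at H2bu1-ps, 9.94, 9.65, 29.9 and 5.56 at H2ac14, and 9.28, 12.4, 39.4 and 11.999 at H2ac5-ps. H2af-ps2, which stands apart from the clusters on chromosome 13, had a summit in mTEChi replicate 2 only, with a score of 3.22.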
